A study of Mus musculus with 4 samples.

Results

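Ceramide and its relatives are built from palmitate, and the transcripts followed here are those of 10 enzymes that make ceramide, convert it or release it: Sptlc1, Sptlc2, Cers2, Cers5, Cers6, Degs1, Ugcg, Sgms1, Sgms2 and Smpd1. Their probe sets were taken by gene symbol in the platform annotation, and all 10 were found among the 22180 genes with a probe set of their own on the array. Of these 10 genes, 8 had 1 probe set and 2 (Cers2 and Smpd1) had 2. All 10 passed the filter on low values, which kept 13354 genes with a mean log2 level of at least 2.44, and each of the 10 lay above that level in all 4 arrays.

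Bone marrow-derived macrophages had been grown for 7 days in medium with 15% L929 conditioned medium, a source of the macrophage growth factor CSF1. The knockout (KO) cells came from HilpdaΔMΦ mice, which lack Hilpda in macrophages, and the wild-type (WT) cells from Hilpdaflox/flox littermates, so the floxed allele is in both. The labels do not name the Cre driver. The donors were 8 to 12 weeks old. All cells, of either genotype, received 600 µM fatty acids on albumin, 1 part palmitate to 2 parts oleate, so no group lacked fatty acids. The 4 groups were KO 24 h, WT 24 h, KO 12 h and WT 12 h, each profiled on a single array that carried pooled RNA from 3 samples. No group had a replicate, so differences between arrays are given as values without a test.

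Pearson correlations between the arrays over the 41345 probe sets were 0.984 to 0.988. Hilpda, in 1 probe set, had log2 levels of 5.27 in KO and 5.47 in WT at 24 h, and of 5.41 in KO and 5.93 in WT at 12 h. Its log2 differences (KO minus WT) were -0.20 at 24 h and -0.51 at 12 h, both under 1.5-fold in size. This is a limited check of the labels, also because the deleted part of the gene is not given in them. All 12 macrophage markers passed the level filter, and 10 of them were lower in KO than in WT at 24 h, with a median log2 difference of -0.29 and Cx3cr1 (-1.20) and Itgam (-0.72) past 1.5-fold. At 12 h 4 of the 12 were lower in KO. Mrc1, the mannose receptor gene, was higher at 24 h than at 12 h by 2.39 in KO and 3.19 in WT. Past the filter were also 5 of 6 osteoclast, 4 of 6 dendritic cell, 3 of 5 B cell, 2 of 6 T and NK cell and 1 of 5 mast cell and basophil markers, and 0 of the 9 neutrophil, 1 erythroid and 4 adipocyte markers measured. Stromal and fibroblast markers were present, with 7 of 9 past the filter and Lum and Thy1 under it. The summed linear level of the 9 stromal markers was 511 in KO and 898 in WT at 24 h, and 378 in KO and 539 in WT at 12 h. Most of each sum came from Col1a1 and Col1a2, with log2 levels of 8.87 and 8.04 in WT at 24 h. All 9, Lum and Thy1 included, were lower in KO than in WT at 12 h, and 8 of 9, all but Lum, at 24 h. Of the 13354 genes kept, 6599 were lower in KO at 12 h and 6549 at 24 h.

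Sphingolipid synthesis starts in the endoplasmic reticulum, where serine palmitoyltransferase joins serine to palmitoyl-CoA. The product is reduced, acylated by a ceramide synthase and desaturated to ceramide. Ceramide then receives a phosphocholine head group to give sphingomyelin or a glucose to give glucosylceramide, and it is released again when sphingomyelinases cut sphingomyelin. Saturated fatty acids such as palmitate feed the pathway directly, and ceramide is known for its roles in cell stress and death.

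In their brighter probe sets the 10 enzymes stayed within 1.5-fold between the genotypes, as most genes did, while the dimmer sets of Cers2 and Smpd1 did not at 24 h. At 24 h, 0 of the 10 had a difference of at least 1.5-fold between KO and WT in their brighter probe set, where 6.48% of the 13354 genes did. At 12 h it was again 0 of 10, where 2.9% of genes did. With 10 genes, counts of 0 are near these shares. The median log2 difference (KO minus WT) over the 10 enzymes was 0.0051 at 24 h and -0.0099 at 12 h, beside medians of 0.0055 and 0.0022 over all genes kept. At 24 h, 5 of the enzymes were above 0 and 5 below, and at 12 h 4 were above and 6 below. Their log2 differences ran from -0.50 for Ugcg to 0.35 for Degs1 at 24 h, and from -0.28 for Ugcg to 0.13 for Cers6 at 12 h. The central 95% of genes ran from -0.66 to 0.62 at 24 h and from -0.50 to 0.49 at 12 h, so every one of the 10 brighter probe sets lay inside it. With a lower bar of 1.3-fold, only Ugcg passed at 24 h, where 17.1% of genes did, and 0 of 10 passed at 12 h, where 9.89% did.

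**Figure D1:**
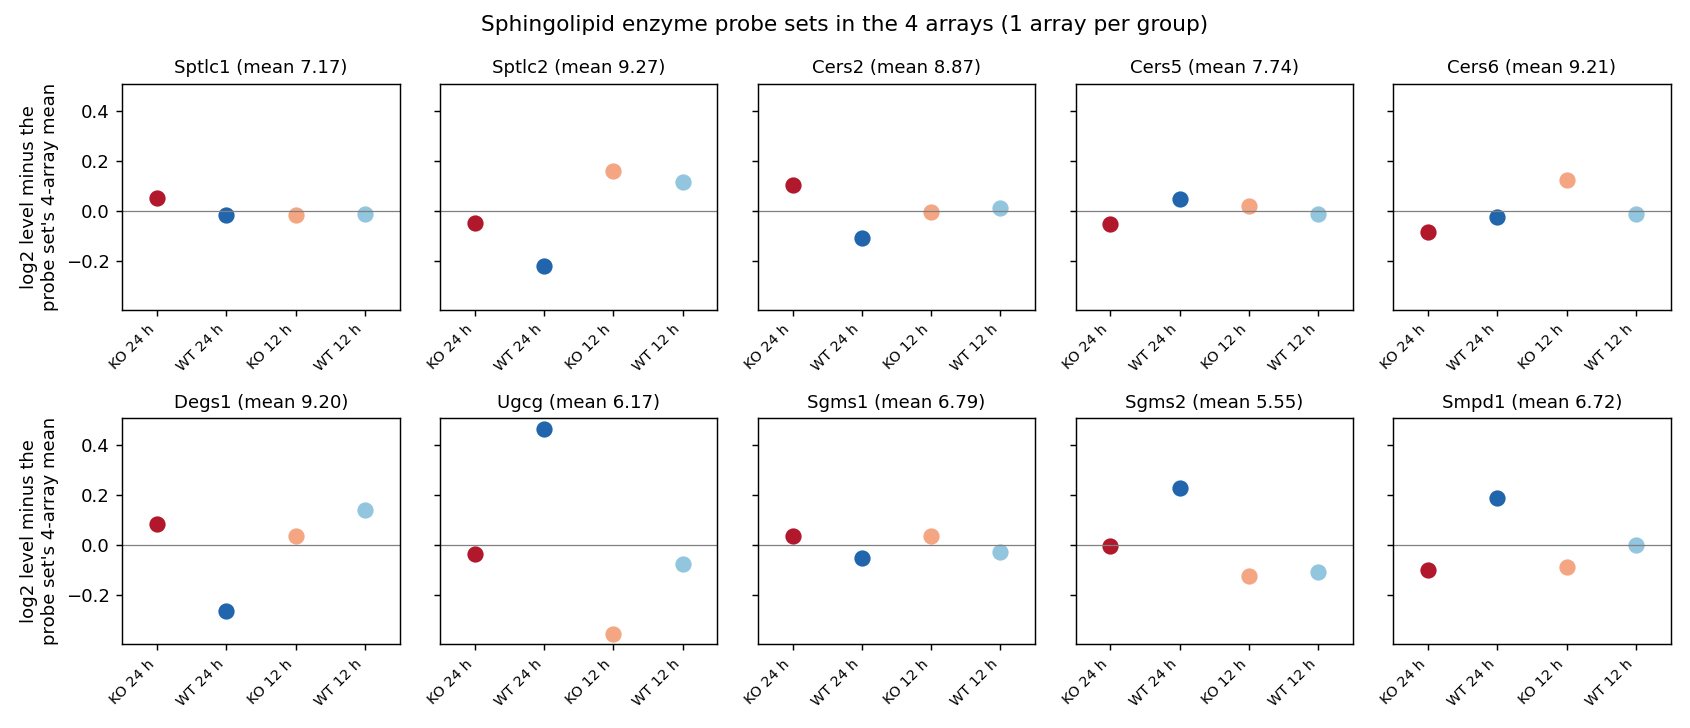
Log2 level of each enzyme's brighter probe set in the 4 arrays, with the probe set's own mean over the 4 arrays subtracted; each point is 1 array, KO left of WT at 24 h and then at 12 h. Ugcg spans 0.82 on the log2 scale, and the other 9 span 0.07 to 0.41.

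Between the times the brighter probe sets of all 10 enzymes also stayed within 1.5-fold. In KO, 0 of 10 had a difference of at least 1.5-fold (24 h against 12 h), where 6.29% of genes did. In WT it was 0 of 10, where 8.73% did. The median log2 difference (24 h minus 12 h) of the 10 was 0.024 in KO and -0.0095 in WT, beside 0.0021 and -0.005 over all genes kept. At 1.3-fold 0 of 10 passed in KO, where 16.8% of genes did, and 2 of 10 passed in WT, where 20.4% did. These 2 were Ugcg, at 0.54, and Degs1, at -0.41. With no cells free of added fatty acids in the comparison, loading and culture time cannot be told apart in a time difference.

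Ugcg encodes glucosylceramide synthase, the entry point to most glycosphingolipids, and it was the enzyme that varied most over the arrays. Its log2 level was 6.13 in KO and 6.63 in WT at 24 h, and 5.81 in KO and 6.09 in WT at 12 h. The WT 24 h array was the highest and the KO 12 h array the lowest, while KO at 24 h and WT at 12 h lay close together. The log2 difference between KO and WT was -0.50 at 24 h, or 1.42-fold, and 675 of the 13354 genes were as low or lower. At 12 h it was -0.28, or 1.21-fold, with 1217 genes as low or lower. Among the 1981 genes whose mean level lay within 0.5 of that of Ugcg on the log2 scale, 8.33% had a genotype difference as large in size at 24 h and 11.6% at 12 h. The log2 difference between 24 h and 12 h was 0.32 in KO, or 1.25-fold, and 0.54 in WT, or 1.46-fold. The genotype differences at the 2 times use no array in common, and both were below 0. They were also both below 0 for Smpd1 and for Sgms2, the latter at only -0.017 at 12 h. The sign was the same at both times for 5 of the 10 enzymes and for 7134 of the 13354 genes kept, so such sameness is common. From the highest, the order of the 4 arrays for Ugcg was WT 24 h, KO 24 h, WT 12 h and KO 12 h. The summed linear level of the 12 macrophage markers had this order, at 25810, 21653, 20665 and 20152. So had that of the T and NK cell markers, most of them under the level filter. No single macrophage marker had the order of Ugcg. At 12 h 8 of the 12 were higher in KO, while Lyz2, the brightest, was lower (-0.21). In the summed stromal markers WT 12 h (539) stood just above KO 24 h (511), and the remaining marker lists had other orders too. Within the stromal list Col3a1 (4.78, 4.28, 4.09 and 3.62) and Pdgfra (5.28, 4.31, 4.29 and 3.66) had the order of Ugcg, and the others did not. The part of any cell type in the result was not tested. In a pooled culture, fewer cells of a type and less RNA per cell cannot be told apart.

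A fit in limma, with genotype and time as terms over all 4 arrays, was the single test across genes. It has 1 residual degree of freedom, which holds how far a gene's genotype difference moved from 12 h to 24 h and no spread between replicates. limma moderates this with a prior of 3.31 degrees of freedom from all genes, so the SEs given rest more on other genes than on the gene itself. The share of genes with an adjusted p under 0.05 was 0% for genotype and 0% for time, while 870 and 1763 genes had an unadjusted p under 0.05. Of the 10 enzymes, Ugcg alone had an unadjusted p under 0.05 in limma, for genotype and for time. As a share, 1 of 10 is near 870 and 1763 of the 13354 genes. Its genotype estimate (KO minus WT) was -0.39 ± 0.12 (SE) on the log2 scale, lower in KO at both times, with an unadjusted p of 0.0313 and a Benjamini-Hochberg adjusted p of 0.762. Its time estimate in limma (24 h minus 12 h) was 0.43 ± 0.12 (SE), higher at 24 h in both genotypes, with an unadjusted p of 0.0226 and an adjusted p of 0.287. Neither estimate of Ugcg thus passed after adjustment. For the other 9 enzymes the limma adjusted p lay between 0.822 and 0.979 for genotype, and between 0.431 and 0.994 for time.

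The genes whose levels moved most like those of Ugcg over the 4 arrays were Psors1c2, Fermt2 and Cers4, by the root mean square distance between log2 levels centred on each gene's mean. The distances were 0.02, 0.022 and 0.029 on the log2 scale. Cers4, a further ceramide synthase gene that prefers longer acyl-CoAs, had log2 levels of 4.38 in KO and 4.88 in WT at 24 h, and of 4.0 in KO and 4.28 in WT at 12 h. Its log2 differences between KO and WT were -0.50 at 24 h and -0.28 at 12 h. Fermt2, which encodes an integrin activator, was at -0.53 and -0.33. Psors1c2 was at -0.46 and -0.25, on a mean level close to the level filter. With 4 arrays such likeness is a description only.

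**Figure D2:**
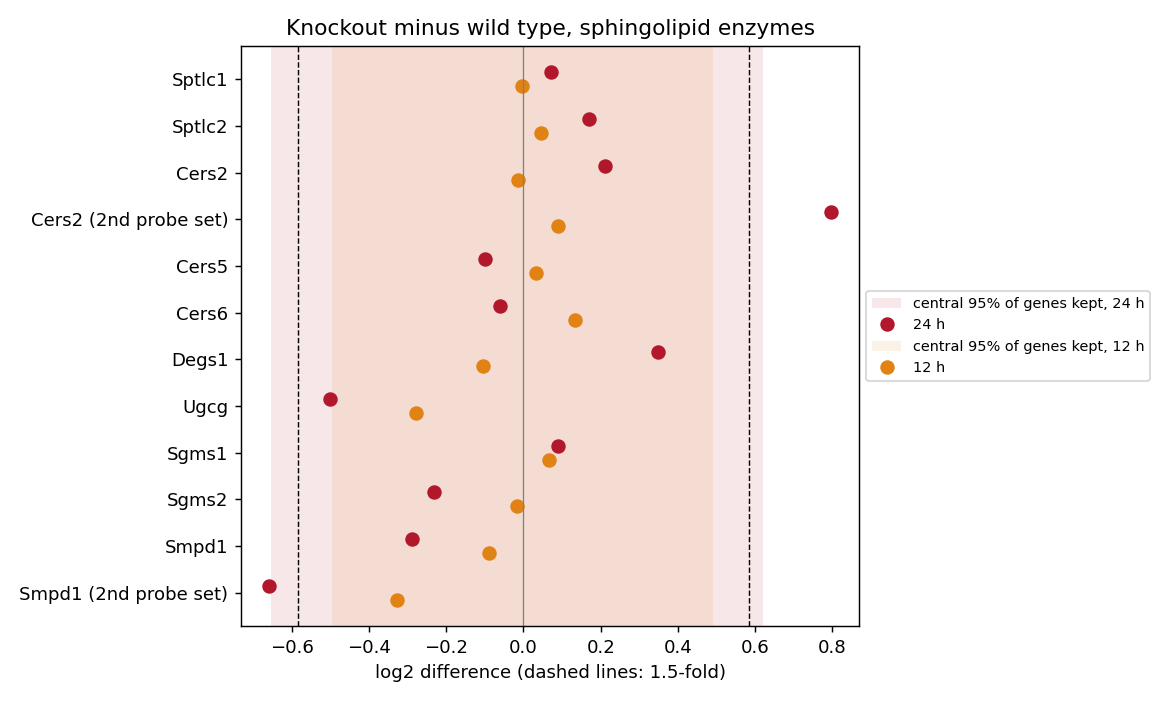
Log2 difference, knockout minus wild type, of each enzyme's probe sets at 24 h and 12 h (1 array per group). Shaded bands are the central 95% of the 13354 genes kept. The dimmer 2nd probe sets of Cers2 (0.80) and Smpd1 (-0.66) lie past the dashed 1.5-fold lines at 24 h, and the brighter probe sets of all 10 enzymes lie between them.

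Serine palmitoyltransferase needs SPTLC1 together with SPTLC2, the subunit that carries the catalytic lysine. Sptlc1 was the steadiest of the 10 enzymes, with log2 levels of 7.22 in KO and 7.15 in WT at 24 h, and of 7.15 in KO and 7.15 in WT at 12 h. Its range of 0.07 over the 4 arrays was exceeded or matched by 97.2% of the 2002 genes near its level. Sptlc2 had log2 levels of 9.22 in KO and 9.05 in WT at 24 h, and of 9.43 in KO and 9.38 in WT at 12 h. Both 24 h arrays of Sptlc2 were below both 12 h arrays. Its time difference was -0.21 in KO and -0.33 in WT on the log2 scale, or 1.16-fold and 1.26-fold. Its genotype difference was 0.17 at 24 h and 0.044 at 12 h. In limma the time estimate of Sptlc2 was -0.27 ± 0.12 (SE), lower at 24 h in both genotypes, with an adjusted p of 0.431.

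Ceramide synthases differ in the acyl-CoA they prefer: CERS5 and CERS6 use palmitoyl-CoA, and CERS2 uses very long chains. Cers5 had log2 levels of 7.69 in KO and 7.79 in WT at 24 h, and of 7.76 in KO and 7.73 in WT at 12 h. Cers6 had 9.13 in KO and 9.19 in WT at 24 h, and 9.34 in KO and 9.20 in WT at 12 h. Neither palmitoyl-CoA enzyme differed between the genotypes by more than 1.10-fold at either time, and the sign of both differences turned between the times. The log2 differences were -0.10 at 24 h and 0.034 at 12 h for Cers5, and -0.06 at 24 h and 0.13 at 12 h for Cers6. The 12 h value of Cers6 was the highest of the 10 enzymes at that time, and 16.0% of the 789 genes near its level had one as large in size.

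Cers2 was measured by a pair of probe sets that did not give the same picture. The brighter had log2 levels of 8.97 in KO and 8.76 in WT at 24 h, and of 8.86 in KO and 8.88 in WT at 12 h. The dimmer had 5.30 in KO and 4.50 in WT at 24 h, and 4.58 in KO and 4.49 in WT at 12 h. In the dimmer set the KO 24 h array thus stood alone above the other 3, which lay within 0.09 of each other. The genotype difference at 24 h was 0.21 on the log2 scale in the brighter set, or 1.16-fold, and 0.80 in the dimmer, or 1.74-fold, a value that 124 of the 13354 genes reached or passed. In KO the time difference was 0.11 in the brighter set and 0.72 in the dimmer. With the mean of both sets the genotype difference at 24 h was 0.50 and the time difference in KO 0.41, both under 1.5-fold.

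Degs1 encodes dihydroceramide desaturase, which makes ceramide in the last step of the de novo route. Its log2 level was 9.28 in KO and 8.94 in WT at 24 h, and 9.24 in KO and 9.34 in WT at 12 h. The WT 24 h array was the low one, and the other 3 lay within 0.10 of each other. The genotype difference was 0.35 at 24 h, or 1.27-fold, the highest among the brighter probe sets of the 10 enzymes, and 1301 genes were as high or higher. At 12 h it was -0.10. Among the 794 genes near its level, 7.68% had a genotype difference as large in size at 24 h. The time difference was 0.047 in KO and -0.41 in WT. The genotype difference of Degs1 was therefore 0.45 higher at 24 h than at 12 h, and 2.77% of the genes near its level had a change as large in size. This was the smallest such share for any of the 10 enzymes in any difference, so it is the extreme of many. The change in Degs1 uses all 4 arrays once and could not be tested.

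Sphingomyelin is made by SGMS1 in the Golgi apparatus and by SGMS2, largely at the plasma membrane. Sgms1 had log2 levels of 6.83 in KO and 6.74 in WT at 24 h, and of 6.83 in KO and 6.76 in WT at 12 h. Both KO arrays were above both WT arrays, but by 0.088 at 24 h and 0.067 at 12 h, which 67.2% and 64.1% of the 2044 genes near its level reached or passed in size. Sgms2 had log2 levels of 5.55 in KO and 5.78 in WT at 24 h, and of 5.43 in KO and 5.45 in WT at 12 h. The WT 24 h array was the highest for Sgms2 and the 2 arrays at 12 h were almost equal. The time difference of Sgms2 was 0.12 in KO and 0.34 in WT on the log2 scale, or 1.09-fold and 1.26-fold.

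Smpd1 encodes acid sphingomyelinase, the lysosomal enzyme that releases ceramide from sphingomyelin. Its brighter probe set had log2 levels of 6.62 in KO and 6.91 in WT at 24 h, and of 6.64 in KO and 6.72 in WT at 12 h. The dimmer set had 4.37 in KO and 5.03 in WT at 24 h, and 4.43 in KO and 4.76 in WT at 12 h. Both sets placed the WT 24 h array highest, then WT 12 h, KO 12 h and KO 24 h, so both KO arrays were under both WT arrays in each set. The genotype difference of the brighter set was -0.29 at 24 h, or 1.22-fold, and -0.088 at 12 h. That of the dimmer set was -0.66 at 24 h, or 1.58-fold, and -0.33 at 12 h, or 1.26-fold. At 24 h 1855 genes were as low as the brighter set or lower, and 328 as low as the dimmer set or lower. In limma the genotype estimate of the brighter set was -0.19 ± 0.12 (SE), lower in KO at both times, with an adjusted p of 0.822. With the mean of both sets the genotype difference was -0.47 at 24 h and -0.21 at 12 h, and the limma estimate was -0.34, with an adjusted p of 0.757.

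The array of wild-type cells at 24 h was the highest or the lowest of the 4 for 9 of the 10 enzymes. It was the highest for Cers5, Ugcg, Sgms2 and Smpd1, and the lowest for Sptlc1, Sptlc2, Cers2, Degs1 and Sgms1. Over all genes kept this array was at an extreme for 58.7%, against 49.3% for KO 24 h, 46.7% for KO 12 h and 45.2% for WT 12 h. The comparisons that do not use it are the genotype difference at 12 h and the time difference in KO. In these, the 10 enzymes ran from -0.28 to 0.13 and from -0.21 to 0.32 on the log2 scale.

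**Figure D3:**
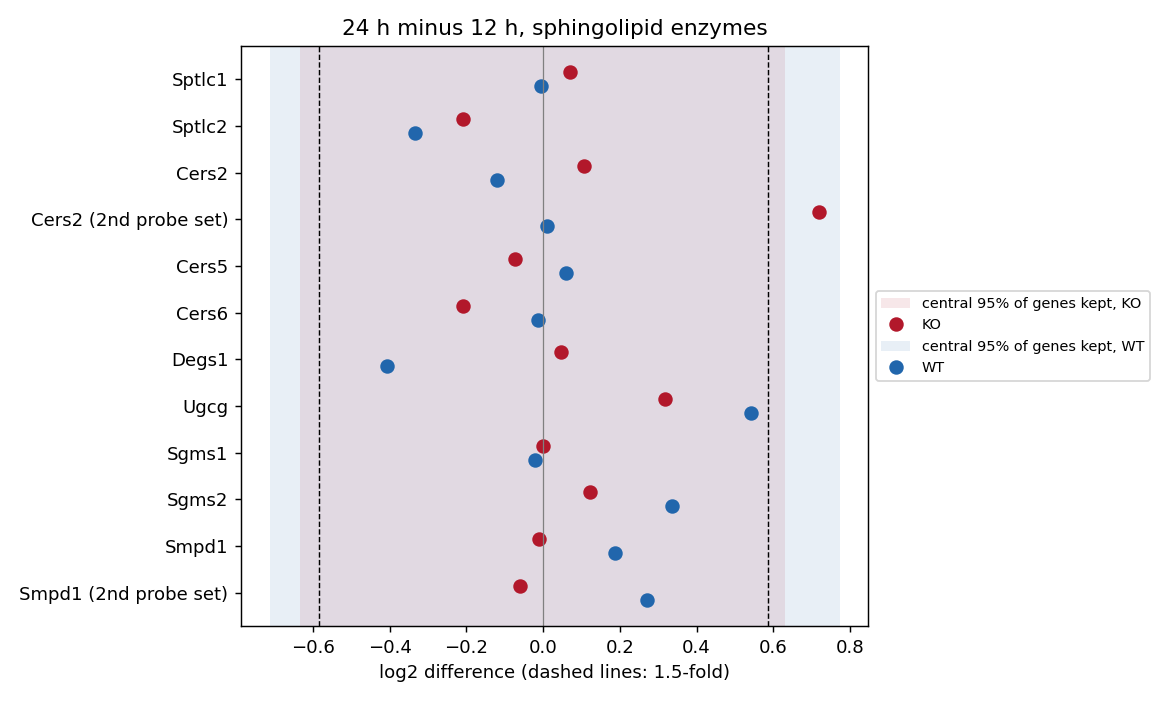
Log2 difference, 24 h minus 12 h, of each enzyme's probe sets in KO and WT (1 array per group). Shaded bands are the central 95% of the 13354 genes kept. Ugcg is to the right of 0 in both genotypes (0.32 and 0.54), Sptlc2 to the left in both (-0.21 and -0.33), and Degs1 is at 0.047 in KO and -0.41 in WT; the dimmer 2nd probe set of Cers2 in KO (0.72) is the point past a 1.5-fold line.

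Stretches upstream of the start sites of 3 of these genes are shown because their enzymes lay on different sides of the genotype difference at 24 h: Ugcg and Smpd1 were at -0.50 and -0.29, and Sptlc2 at 0.17. They are RefSeq sequences of build GRCm38.p6, 5′ to 3′ on the gene's strand, and end just before the gene's outermost annotated start. Capitals mark the CCAAT box (CCAAT) and the GC box (GGGCGG), searched on both strands; no match overlapped another in these 3 windows.
Ugcg, chr4:59189300-59189506, plus strand: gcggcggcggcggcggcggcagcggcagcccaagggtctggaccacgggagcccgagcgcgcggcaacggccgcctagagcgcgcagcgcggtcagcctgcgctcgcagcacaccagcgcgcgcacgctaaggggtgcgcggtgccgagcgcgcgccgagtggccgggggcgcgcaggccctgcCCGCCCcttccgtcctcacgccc
Smpd1, chr7:105554110-105554359, plus strand: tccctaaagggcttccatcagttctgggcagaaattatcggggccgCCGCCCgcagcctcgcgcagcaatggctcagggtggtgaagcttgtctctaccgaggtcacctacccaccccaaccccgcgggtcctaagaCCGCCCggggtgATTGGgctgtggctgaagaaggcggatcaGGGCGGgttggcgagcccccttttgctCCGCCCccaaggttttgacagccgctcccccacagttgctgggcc
Sptlc2, chr12:87388356-87388605, minus strand: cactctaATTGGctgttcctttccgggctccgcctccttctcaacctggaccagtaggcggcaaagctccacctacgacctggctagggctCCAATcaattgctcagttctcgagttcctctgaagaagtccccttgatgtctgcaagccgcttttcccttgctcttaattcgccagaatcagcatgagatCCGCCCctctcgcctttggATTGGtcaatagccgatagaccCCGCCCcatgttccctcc

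In the 250 bases before the tabled start site Smpd1 held 4 GC boxes and 1 CCAAT box, Sptlc2 held 2 GC boxes and 3 CCAAT boxes, and Ugcg held 2 GC boxes, of which 1 lies in the stretch shown, and 0 CCAAT boxes. The Ugcg window was 80.4% G and C, that of Smpd1 64.8% and that of Sptlc2 55.2%, against a median of 52.4% over all windows. The 10 enzymes had 19 such windows in the table. Of these 19 windows 10 held a GC box and 8 a CCAAT box, and of the 32851 windows of all genes 32.7% and 33.9% did. The E-box CACGTG was in 4 of the 19 windows (6.02% of all windows), among them that of Degs1, which lies inside its longest gene model and is not shown. The AP-1 motif TGANTCA was in 3 of the 19 windows (6.75% of all windows), all of Sgms1 or Sgms2. The letters TATAAA, the ETS motif GAGGAAGT and the sterol element TCACNCCAC were in 0 of the 19 windows (12.4%, 2.44% and 1.05% of all windows). In the 19 windows 1 pair of matches overlapped. These are matches of letters, not sites of binding.

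The rest of the sphingolipid pathway was followed in 66 further genes, of which 61 had a probe set of their own and 49 passed the level filter. At 24 h, 1 of the 49 was higher and 1 lower in KO by at least 1.5-fold, where 6.48% of all genes kept passed in either direction, and at 12 h 0 of 49 were, where 2.9% of all genes did. Their median log2 difference between KO and WT was 0.073 at 24 h and 0.016 at 12 h. Over time, 4 were higher and 1 lower at 24 h in KO by at least 1.5-fold, and 1 higher and 2 lower in WT, where 6.29% and 8.73% of all genes passed. These counts are near those shares. Under the filter lay 12 genes, among them Degs2, Sptlc3 and the sphingosine kinase gene Sphk1, with log2 levels in the single arrays of up to 2.79. Probe sets for Sptssa, Cers1 and Glb1 carried several gene names and were not used.

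Of the other de novo genes, Kdsr and Cers4 passed the level filter. Kdsr, the ketosphinganine reductase, had log2 levels of 7.10 in KO and 6.92 in WT at 24 h, and of 7.10 in KO and 7.22 in WT at 12 h. Its WT 24 h array was the lowest, as for Degs1 and Sptlc2. Cers4 had a time difference of 0.60 in WT, or past 1.5-fold, and 0.38 in KO. The ORMDL proteins restrain serine palmitoyltransferase. In each of the 4 comparisons 0 of 4 regulator genes, Rtn4 included, passed 1.5-fold, where 2.9% to 8.73% of all genes kept did. With 4 genes, counts of 0 are near these shares. Ormdl1 was at 0.39 at 24 h and -0.036 at 12 h (KO minus WT), Ormdl2 at 0.20 and -0.22, and Ormdl3 at 0.16 and 0.31.

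Among the 7 other genes of sphingomyelin metabolism, 0 passed 1.5-fold between the genotypes. Of all genes kept, 6.48% passed at 24 h and 2.9% at 12 h. The median log2 difference of the 7 was 0.12 at both 24 h and 12 h. Smpdl3a, a phosphodiesterase related to acid sphingomyelinase, had 2 probe sets, and values of the dimmer are not given here. In the brighter its log2 levels were 9.90 in KO and 9.46 in WT at 24 h, and 10.2 in KO and 10.2 in WT at 12 h. Both 24 h arrays were below both 12 h arrays, by -0.29 in KO and -0.70 in WT. Its relative Smpdl3b was at 5.52 in KO and 5.66 in WT at 24 h, and at 4.85 in KO and 5.41 in WT at 12 h, a time difference of 0.67 in KO and 0.25 in WT. Smpd2, a neutral sphingomyelinase gene, was at -0.24 at 24 h and 0.25 at 12 h (KO minus WT).

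Of the 10 genes listed under glycosphingolipid synthesis, the transfer protein genes Gltp and Plekha8 included, 0 passed 1.5-fold between the genotypes at either time. Of all genes kept, 6.48% passed at 24 h and 2.9% at 12 h. St3gal5, the sialyltransferase that makes the simplest ganglioside, had log2 levels of 7.56 in KO and 7.70 in WT at 24 h, and of 8.10 in KO and 8.20 in WT at 12 h. Both 24 h arrays were thus below both 12 h arrays, by -0.54 in KO and -0.51 in WT, close to but under 1.5-fold. In limma its time estimate was -0.53 ± 0.11 (SE), lower at 24 h in both genotypes, with an adjusted p of 0.217. B3galt4, a galactosyltransferase of gangliosides, was at 5.11 in KO and 5.04 in WT at 24 h, and at 5.38 in KO and 5.91 in WT at 12 h, so its time difference was -0.27 in KO and -0.88 in WT. The sulfotransferase gene Gal3st1 was at 0.15 at 24 h and 0.50 at 12 h (KO minus WT), on a mean level of 2.57.

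In each of the 4 comparisons 0 of the 10 breakdown genes past the filter passed 1.5-fold, where 2.9% to 8.73% of all genes kept did. With 10 genes, counts of 0 are near these shares. Gla, alpha-galactosidase, was at 0.51 at 24 h and 0.21 at 12 h (KO minus WT), and Neu1, the lysosomal sialidase, at 0.41 and -0.069. Arsa, arylsulfatase A, was at 0.078 and 0.38. Among the 4 ceramidase genes kept, which include Asah1 of the breakdown list, 0 differed between the genotypes by 1.5-fold. Of all genes kept, 6.48% did at 24 h and 2.9% at 12 h. Asah2, neutral ceramidase, had log2 levels of 7.11 in KO and 7.15 in WT at 24 h, and of 6.50 in KO and 6.89 in WT at 12 h, and its time difference of 0.62 in KO was past 1.5-fold. Acer3, an alkaline ceramidase, was at 0.29 at 24 h and 0.16 at 12 h (KO minus WT), and Acer2 at -0.14 and 0.11 on a mean level of 2.59.

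Of the 9 genes of sphingosine 1-phosphate metabolism, 0 passed 1.5-fold between the genotypes. Among all genes kept, 6.48% passed at 24 h and 2.9% at 12 h. Plpp3, a lipid phosphate phosphatase, had log2 levels of 6.33 in KO and 5.81 in WT at 24 h, and of 5.65 in KO and 5.33 in WT at 12 h. It was higher in KO than in WT at both times, by 0.52 and 0.32, and higher at 24 h than at 12 h in both genotypes, by 0.68 in KO and 0.48 in WT. In limma its genotype estimate was 0.42 ± 0.12 (SE), with an adjusted p of 0.762, and its time estimate 0.58 ± 0.12 (SE), with an adjusted p of 0.217. Sgpp1, a sphingosine 1-phosphate phosphatase gene, was at -0.23 at 24 h and 0.21 at 12 h (KO minus WT) in the brighter of its 2 probe sets. Plpp1 was at -0.18 and -0.31. The receptors S1pr1 and S1pr2 passed the filter with differences within -0.14 to 0.016 between the genotypes. S1pr3 and S1pr5 passed it on mean levels of 2.87 and 2.82, and they were the pair past 1.5-fold at 24 h, at 0.65 and -0.64.

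**Figure D4:**
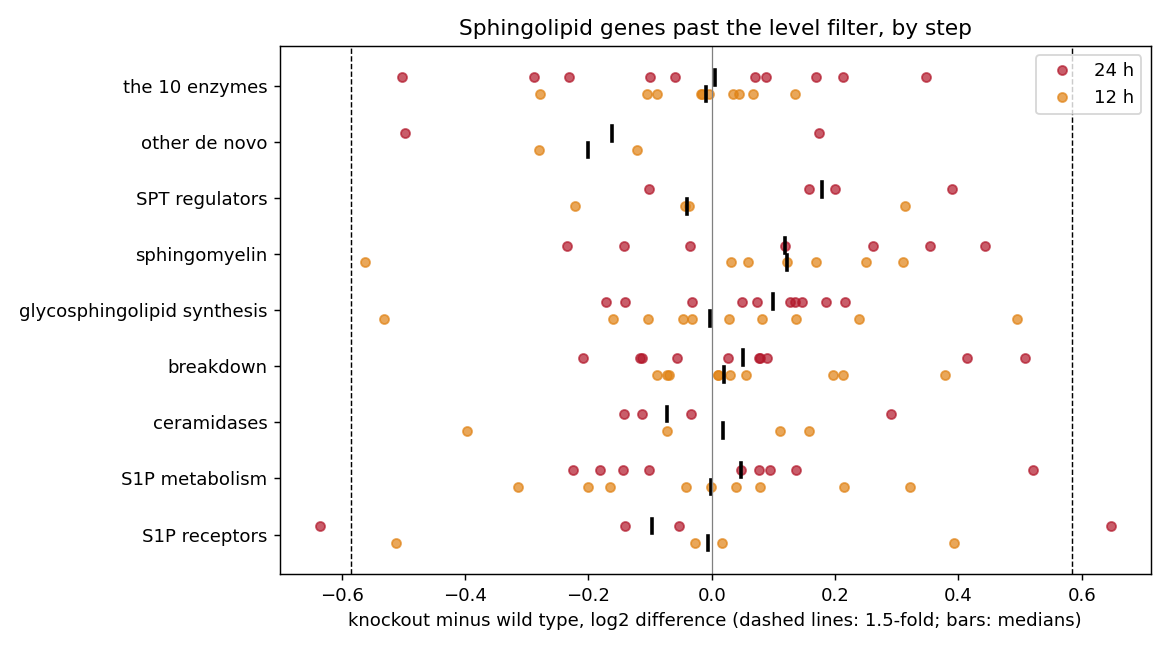
Log2 difference, knockout minus wild type, of the 10 enzymes and of the other sphingolipid genes past the level filter, by step; each point is 1 gene at 24 h or 12 h, and the bars are medians. S1pr3 (0.65) and S1pr5 (-0.64) at 24 h are the points outside the dashed 1.5-fold lines.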

How the data were processed

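Expression was measured on Affymetrix arrays with whole-transcript labelling. The authors deposited RMA values, on a log2 scale as judged from their range, with 1 value per probe set; the submitters' processing notes name RMA without a version. RMA corrects background and forces the arrays to 1 common distribution, which hides a shift shared by all transcripts. The annotation and genome build the authors used are not given in the sources used here, and 0 columns were left unmatched to a sample. With 1 array per group, the number of arrays limits the precision.

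Of 41345 probe sets, 23521 carried 1 gene symbol, 1814 several and 16010 none in the platform annotation. Only those with 1 symbol were named. Where a gene had several probe sets (1082 of 22180 genes), the brightest by its 4-array mean was used. Genes with a mean at or above the 40th percentile of probe sets with 1 symbol (2.44) were kept. Promoter windows were matched by symbol to the RefSeq table of GRCm38.p6, in which all 10 enzymes were found.

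Differences are knockout minus wild type and 24 h minus 12 h. The only test across all genes was limma 3.58.1 (R 4.3.3), with genotype and time as terms and Benjamini-Hochberg adjustment. The fit was also run on simulated data with independent noise and the same genotype effect at both times. That run checks the calculation, not how the test performs on single pooled arrays. Named were all 10 enzymes. From each list of related genes came those past 1.5-fold in any comparison and the 3 with the largest range. For Ugcg, the only enzyme whose brighter probe set had a range past 1.5-fold, the 3 genes nearest in pattern were named, passing over clone and predicted-gene names. Rtn4, S1pr1, and genes under the filter or with shared probe sets were named after their values were seen. The enzymes and the gene lists were chosen with earlier results of these data known. Alternatives tried were the mean over probe sets, a loess on level (span 0.3), quantile normalization, median centring, rules of 1.3-fold and 2-fold, the level filter set at the 60th percentile (4.20) or left out, and an eBayes trend in limma.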

Additional observations from a re-analysis of the deposited data

Results flagged for a closer look

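With 1 array per group no group was large enough to look for a sample far from the others. Genotype differences of opposite sign at the 2 times that changed by at least 1.5-fold between them were found for 3 of 59 sphingolipid genes (5.08%) and for 0 of the 10 enzymes among them, where 8.21% of all genes kept showed the same. These changes were not tested.

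S1pr3, a sphingosine 1-phosphate receptor gene, had log2 levels of 3.75 in KO and 3.10 in WT at 24 h, and of 2.07 in KO and 2.58 in WT at 12 h. Its genotype difference was 1.16 higher at 24 h than at 12 h. The KO 12 h array lay under the level filter of 2.44.

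S1pr5 had log2 levels of 2.46 in KO and 3.09 in WT at 24 h, and of 3.06 in KO and 2.67 in WT at 12 h, a change of the genotype difference of -1.03. B3galt4 was at 5.11 in KO and 5.04 in WT at 24 h, and at 5.38 in KO and 5.91 in WT at 12 h, a change of 0.60. For B3galt4 the WT 12 h array was the high one.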

How the results depend on the processing

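With no replicates there is no spread against which to judge the movement of a pairwise difference. The median log2 difference over the 10 enzymes ran over the alternatives from -0.024 to 0.0051 between KO and WT at 24 h, from -0.0099 to 0.015 between them at 12 h, from 0.011 to 0.024 between the times in KO and from -0.0095 to 0.019 between the times in WT, so 3 of these 4 crossed 0. The count of enzymes past the fold rule changed only at 1.3-fold, which gave 1 enzyme for the genotype difference at 24 h, 2 for the time difference in WT and 1 for the genotype difference at 24 h less that at 12 h, against 0 each at 1.5-fold. The genotype difference of Ugcg ran from -0.54 to -0.50 at 24 h and from -0.28 to -0.27 at 12 h. With the mean over probe sets the time difference of Cers2 in KO was 0.41, against 0.11 in the brighter set alone. In that setting the genotype difference at 24 h was 0.50 for Cers2, against 0.21, and -0.47 for Smpd1, against -0.29. The limma time estimates of Cers2 (-0.006) and Cers5 (-0.0068), near 0, turned positive: for Cers2 to 0.18 with the mean over probe sets, 0.002 after median centring and 0.0018 after quantile normalization, and for Cers5 to 0.0012 after median centring. The cause was not tested.

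In limma 0 of the 10 enzymes had an adjusted p under 0.05 for genotype or time under any alternative. For Ugcg it ran from 0.614 to 0.866 for genotype and from 0.141 to 0.447 for time. The number of genes with an adjusted p under 0.05 for time was 0, but 44 after median centring, 114 with the filter at the 60th percentile and 539 with the eBayes trend; for genotype it was 0 throughout. No paired analysis was possible because each group had 1 array. Leaving out an array would empty a group, so this was not run.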
